A study of Homo sapiens with 6 samples.

Results

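Oxidative phosphorylation genes were followed in UMUC3 cells, an established human bladder cancer line, with and without forced expression of TIM-1. Members were chosen by gene symbol: the 13 protein-coding genes of mitochondrial DNA, and nuclear genes whose symbol begins with NDUFA, NDUFB, NDUFC, NDUFS, NDUFV, SDH (A to D), UQCR, COX4I, COX5, COX6, COX7, COX8 or ATP5, or is CYC1. Of 298 symbol matches, 180 pseudogenes and 6 antisense or divergent RNA genes were set aside. This left 112 of the 60605 genes in the count table, 13 encoded by mitochondrial DNA and 99 by nuclear DNA. By role, 44 genes belonged to complex I (7 mitochondrial and 37 nuclear), 4 to complex II, 11 to complex III (1 and 10), 22 to complex IV (3 and 19) and 21 to complex V (2 and 19). A further 8 were NDUFAF assembly factors and 2 were readthrough genes. NDUFA4 and NDUFA4L2 were placed with complex IV, where the NDUFA4 protein is now known to sit.

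One group of 3 libraries came from UMUC3 cells infected with TIM-1-PLVX-IRES-zsgreen, a lentiviral vector that expresses TIM-1 (gene HAVCR1) together with a green fluorescent protein. The other group of 3 came from cells infected with PLVX-IRES-Zsgreen, the same vector without TIM-1, so both groups carry virus and fluorescent protein. Total RNA was sequenced. Proliferation and IFIT2 are named with TIM-1 in the title of the series. The labels do not say whether libraries of a group came from separate infections or cultures, so each p-value reflects the spread among 3 libraries that could be technical repeats. In such bulk libraries fewer cells expressing a gene and less RNA per cell cannot be told apart.

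Oxidative phosphorylation moves electrons from NADH through complex I, or from succinate through complex II, to coenzyme Q, then through complex III and cytochrome c to complex IV, which reduces oxygen. Complexes I, III and IV pump protons across the inner mitochondrial membrane, and complex V, the ATP synthase, uses their return to make ATP. Complex II is built from nuclear-encoded subunits alone, while the other complexes mix subunits made inside the mitochondrion with imported ones. The mitochondrial genes are transcribed as long polycistronic RNAs by a dedicated polymerase, POLRMT, with the factor TFAM. Many of the nuclear genes carry sites for the activators NRF1, GABPA (an ETS factor) and YY1 in their promoters.

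Stretches of promoter that hold motifs of these activators are shown first, 1 per complex. Each belongs to the member of the highest level per exon length in its complex among those with a motif in upstream sequence free of annotated exons. Sequences are from RefSeq, build GRCh38.p14, written 5′ to 3′ on the gene's strand, and capitals mark the motifs. The NDUFB4 stretch (complex I) is chr3:120596159-120596308 on the plus strand and holds the NRF1 core in both orientations. The SDHB stretch (complex II) is chr1:17054171-17054282 on the minus strand and holds 1 NRF1 core. The UQCR11 stretch (complex III) is chr19:1605491-1605640 on the minus strand and holds 1 ETS motif. The COX5B stretch (complex IV) is chr2:97645890-97646039 on the plus strand and holds an NRF1 core and an ETS motif. The ATP5PD stretch (complex V) is chr17:75046986-75047135 on the minus strand and holds 1 ETS motif.
NDUFB4: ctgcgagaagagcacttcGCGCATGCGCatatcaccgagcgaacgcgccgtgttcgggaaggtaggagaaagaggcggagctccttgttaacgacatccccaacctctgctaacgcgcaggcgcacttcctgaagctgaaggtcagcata
SDHB: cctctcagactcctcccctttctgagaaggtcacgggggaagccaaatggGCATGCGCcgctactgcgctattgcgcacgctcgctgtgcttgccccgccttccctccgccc
UQCR11: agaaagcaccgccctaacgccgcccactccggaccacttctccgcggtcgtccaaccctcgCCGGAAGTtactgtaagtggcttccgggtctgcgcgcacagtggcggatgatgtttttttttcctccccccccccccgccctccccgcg
COX5B: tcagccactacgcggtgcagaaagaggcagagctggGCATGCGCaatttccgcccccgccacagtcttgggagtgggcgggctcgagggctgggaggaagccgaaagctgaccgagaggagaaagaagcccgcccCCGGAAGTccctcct
ATP5PD: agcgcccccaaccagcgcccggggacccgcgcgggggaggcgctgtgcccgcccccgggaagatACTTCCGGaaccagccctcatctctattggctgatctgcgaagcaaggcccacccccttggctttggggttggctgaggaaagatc

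Promoters of 300 bases (250 before the start and 50 after it) were matched for 78 of the 99 nuclear genes. Exact letters on either strand were searched. The NRF1 core GCGCATGC was found in 15 of these promoters (19.2%), against 894 of all 27305 promoters in the RefSeq table (3.27%). The ETS motif CCGGAAGT was found in 10 (12.8%), against 4.44% of all promoters. The YY1 core AAGATGGCG was found in 8 (10.3%), against 1.85%. At least 1 of these motifs was present in 27 of the 78 (34.6%), against 8.90% of all promoters. A match describes the sequence only and says nothing of binding in these cells.

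Total counts ran from 14312387 to 18605914 per library. HAVCR1 was counted 7069, 9824 and 11479 times in the TIM-1 libraries and 4, 0 and 0 times with empty vector, so the libraries match their labels. Among 15 urothelial and epithelial markers, 6 were abundant enough to test. KRT8 and KRT18 were present, while KRT20, UPK3A and EPCAM, defining markers of differentiated urothelium or epithelium, had no count in any library. In the paired fit described below PPARG was higher (log2 0.62) and GATA3 (-1.25) and KRT18 (-0.24) were lower, edgeR adjusted p of 0.018, 0.046 and 0.0095. None of the 6 passed without the block, with a smallest adjusted p of 0.644, and with a term for replicate 1 only in place of the block PPARG (0.029) passed while GATA3 (0.061) and KRT18 (0.060) did not. Among 10 markers of other cell types only MYH11 was tested, at 0.618 to 1.503 CPM. The part of these marker differences in the results below was not tested. The libraries numbered 1 stood apart from the others in both groups, and empty-vector replicate 3 stood apart for the mitochondrial genes. Below, the mitochondrial, nuclear, nuclear complex III and complex IV, and mitochondrial complex I medians are given with and without single libraries.

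The respiratory genes spanned a wide range of level per exon length. In FPKM (CPM, counts scaled to library size with TMM factors, divided by exon length in kilobases and averaged over 6 libraries), the mitochondrial genes of complex IV were highest, from 6810 for MT-CO3 to 8375 for MT-CO1, the catalytic subunit of cytochrome c oxidase. MT-CYB, the cytochrome b of complex III, stood at 2968 FPKM, and the 7 mitochondrial complex I genes had a median of 1477. Nuclear subunits were lower, with a median of 22.8 FPKM for complex I, 14.3 for complex II, 29.3 for complex III, 13.3 for complex IV and 32.3 for complex V. These medians are over all members, so complex IV includes isoforms with no count and complex II includes SDHA at 0.283 FPKM. The highest nuclear member was ATP5F1B, the catalytic beta subunit of the ATP synthase, at 794 FPKM. Exon length here joins all annotated exons of a gene, 2322 bases for ATP5F1B and 10908 for ATP5F1A. ATP5F1A stood at 79.5 FPKM, while the mean CPM was 1844 for ATP5F1B and 867 for ATP5F1A, so FPKM also depends on the annotation. All members together took 5.05%, 5.11% and 5.10% of the counts in the TIM-1 libraries and 4.97%, 4.95% and 5.72% with empty vector. The mitochondrial genes alone took 4.04%, 4.10% and 4.00% with TIM-1 and 3.94%, 3.89% and 4.68% with empty vector. On this scale 5 of the 6 libraries lay within a narrow band and empty-vector replicate 3 lay above it.

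Subunits of one complex were counted at very unequal levels. Of 80 nuclear subunit genes, with 9 tissue-restricted isoform partners and near-copies set aside, 12 had a mean count below 100: NDUFA7, NDUFA11, NDUFA13, NDUFB8, NDUFC2, NDUFS7, NDUFV2, SDHA, UQCR10, COX6A1, ATP5ME and ATP5PO. Their median level was 0.607 FPKM, against 32.5 FPKM for the other 68. SDHA, the catalytic flavoprotein of complex II, was counted 30, 41 and 50 times with TIM-1 and 32, 39 and 42 times with empty vector. Its level was 0.283 FPKM, while its partner SDHB, the iron-sulfur subunit, stood at 70.8 FPKM with counts between 2495 and 3146. NDUFV2, a core subunit of complex I, stood at 0.413 FPKM with counts of 5 to 25, while NDUFV1, its neighbour in the enzyme, stood at 62.3 FPKM. Members of 1 enzyme, present there in fixed ratio, thus lay far apart in this table in both groups.

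Coding sequence shared with other annotated genes was then counted. At least 30% of the coding bases lay inside exons of another annotated gene on the same strand for 8 of the 12 low-count genes and for 6 of the other 68, a limit chosen after the values were seen. NDUFB8 shared 85.2% of its coding bases in this way, NDUFV2 84.7%, NDUFA7 78.3% and NDUFC2 76.9%. SDHA shared none but has 4 annotated pseudogene copies, and COX6A1 has 7 besides sharing 53.5%. Such copies were not particular to low-count genes. COX6C has 17 and NDUFB4 has 12, at mean counts of 669 and 1505, while the low-count NDUFA7 and NDUFS7 have 0. The rule for reads in shared or repeated sequence was not stated in the labels, and the part of shared annotation in these low counts was not tested. In mitochondrial DNA, MT-ATP8 stood at 8.50 FPKM with counts of 15 to 45, against 2617 FPKM for MT-ATP6, with which it shares 22.2% of its length.

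**Figure D1:**
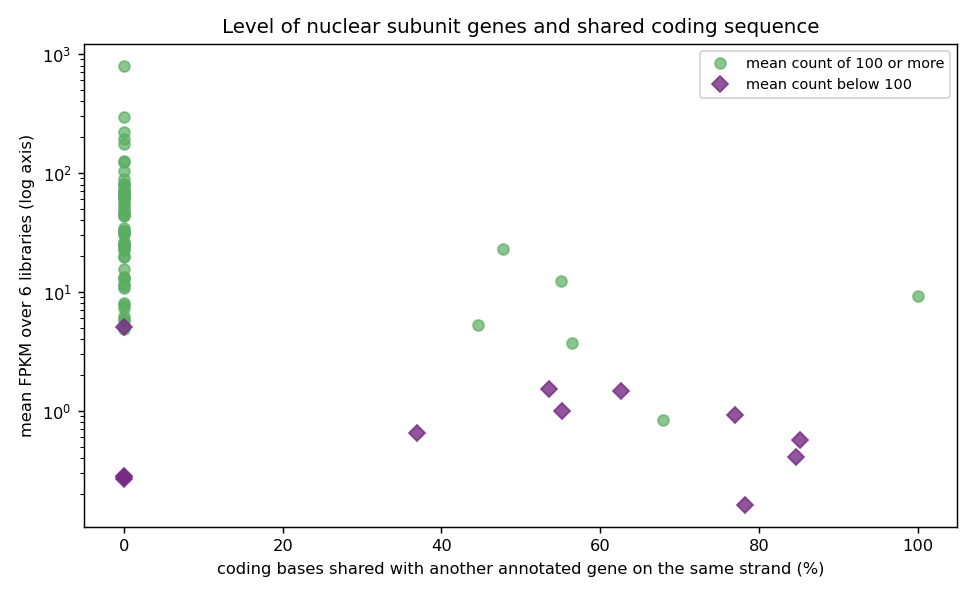
Mean level (FPKM, log axis) of the 80 nuclear subunit genes against the percentage of their coding bases that lie in exons of another annotated gene on the same strand. Diamonds mark the 12 genes with a mean count below 100; 8 of them lie at 30% or more, against 6 of the other 68 genes (circles).

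Tissue-restricted isoforms were at or near zero beside their common partners. COX4I1, the common isoform of the complex IV regulatory subunit, stood at 81.2 FPKM, while COX4I2, its lung and hypoxia isoform, had no count in any of the 6 libraries. The muscle isoform COX6A2 and the testis isoform COX8C also had no count. A count of 0 allows up to 3 counts, or between 0.162 and 0.207 CPM depending on the library, for counting error only. The muscle isoform COX7A1 was counted 4 to 18 times per library and stood at 0.525 FPKM, against 61.6 for COX7A2. NDUFA4L2, the hypoxia-linked partner of NDUFA4, was counted 0 to 7 times and stood at 0.0774 FPKM, against 26.3. COX6B2, a testis isoform, was counted 4 to 21 times and stood at 0.196 FPKM, against 175 for COX6B1. Of the coding bases of COX6B2, 100% lie in exons of another annotated gene on the same strand. The part of this in its low count was not tested. COX7B2, another testis isoform, was the exception, at 7.16 FPKM beside 60.98 for COX7B. COX6A1, the common partner of COX6A2, and COX8A, the partner of COX8C, stood at 1.53 and 12.4 FPKM.

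Of the 112 members, 103 were abundant enough to be tested between TIM-1 and empty vector. The 9 left out were NDUFA7, COX4I2, COX6A2, COX8C, NDUFA4L2, ATP5ME, ATP5MGL and both readthrough genes. None of the 103 passed an adjusted p of 0.05 in edgeR's quasi-likelihood test with no replicate term, where 0.0138% of all 14479 tested genes did. The smallest adjusted p among members was 0.828. At an unadjusted p of 0.05, 2 members were higher, ATP5IF1 and NDUFAF3, and none was lower. Over all 14479 tested genes 572 were higher and 223 lower at that limit. DESeq2 also called none of the members. Log2 fold changes of members had a median of 0.014, with 55 above 0 and 48 below, beside a median of -0.00075 over all tested genes. The 95% interval lay within a 1.5-fold change either way for 82 of the 103 members and within 1.25-fold for 46. These intervals are for single genes and reflect the spread among these libraries only. The plot of fold changes by complex shows most members inside 0.2 of zero on the log2 scale.

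**Figure D2:**
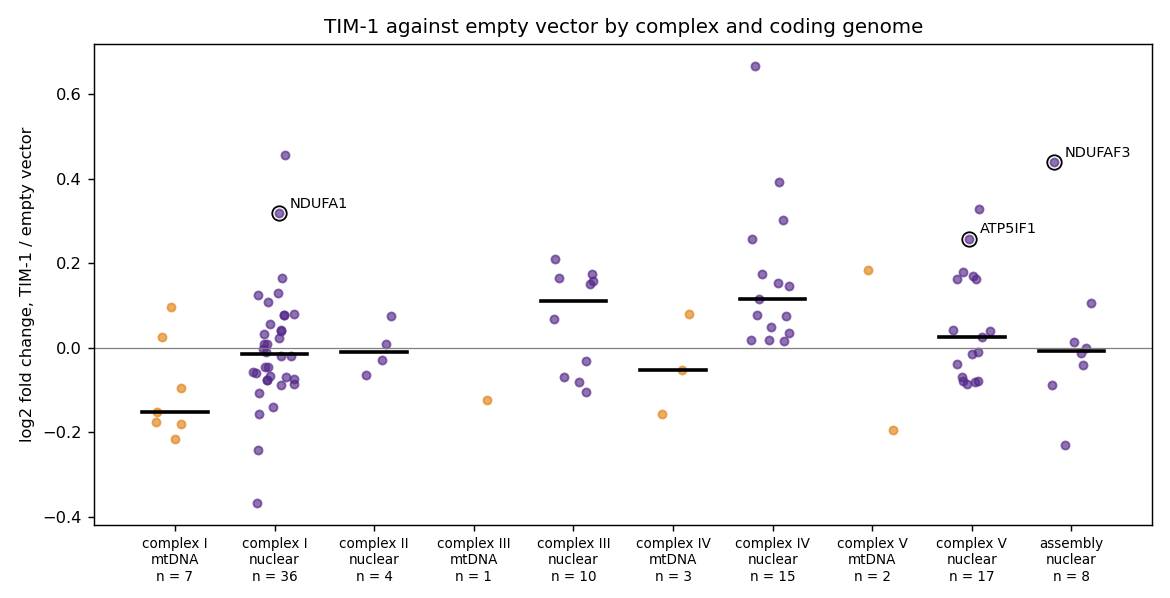
Log2 fold change of TIM-1 over empty vector (fit with no replicate term) for the 103 tested members, by complex and coding genome (orange, mitochondrial DNA; purple, nuclear DNA). Black lines are medians for sets of more than 2 genes; ringed genes passed the threshold in the paired fit only. All 15 nuclear complex IV genes lie above 0, while 9 of the 13 mitochondrial genes lie below it.

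Because both groups carry replicate numbers 1 to 3 and same-numbered libraries deviated together, a second fit took the number as a block and is called the paired fit here. The deviations did not tell replicate 2 from replicate 3, so the pairing of those libraries rests on their numbers alone. In the paired fit 3 members were called higher and 0 lower, at edgeR adjusted p below 0.05. Over all tested genes 3.22% were called higher and 1.79% lower in that fit, so the share of members called higher was near the background. The members called were NDUFA1, NDUFAF3 and ATP5IF1. With DESeq2 and the same block none of the members was called. At an unadjusted p of 0.05 the paired fit had 7 members higher and 7 lower. Over all 14479 tested genes it had 1426 higher and 1230 lower at that limit, so members as a whole were not called more often than the rest. Of the 7 lower, 5 were among the 13 mitochondrial genes and 2 among the 90 nuclear ones. Empty-vector replicate 3 was the highest library for 10 of those 13, as given below. With a term for replicate 1 only, 1 of the 13 was lower at that limit.

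NDUFA1, a small membrane-arm subunit of complex I, was at 47.2, 49.3 and 69.2 CPM in TIM-1 replicates 1, 2 and 3 and at 39.4, 46.3 and 47.2 CPM with empty vector (chrX:119871487-119876662, hg38). TIM-1 was higher in 3 of 3 pairs, and the groups overlapped. The log2 fold change was 0.32 ± 0.15 (SE) without the block and 0.31 ± 0.08 with it, edgeR adjusted p of 0.891 and 0.0197. TIM-1 replicate 3 was the highest library, and without the replicate 3 pair the adjusted p was 0.392. RNF113A lies on the other strand across 44.5% of the exon length of NDUFA1 and had a log2 fold change of 0.49 with counts of 203, 208 and 228 against 156, 137 and 159. Without a stated strand setting, reads of NDUFA1 and RNF113A cannot be told apart where they overlap.

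NDUFAF3, a factor needed to assemble complex I, was at 19.9, 20.2 and 24.1 CPM with TIM-1 and at 11.5, 17.8 and 18.0 CPM with empty vector (chr3:49020459-49023495). The groups did not overlap, and empty-vector replicate 1 was the lowest library. The log2 fold change was 0.44 ± 0.18 (SE) without the block and 0.45 ± 0.12 with it, edgeR adjusted p of 0.880 and 0.0134. Without the replicate 1 pair the adjusted p was 0.155. DALRD3, on the other strand, overlaps 21.7% of its exon length and had a log2 fold change of 0.14.

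ATP5IF1, which inhibits ATP hydrolysis by the ATP synthase when the membrane potential falls, was at 63.6, 55.3 and 65.9 CPM with TIM-1 and at 50.4, 51.7 and 52.5 CPM with empty vector (chr1:28236109-28246906). The groups did not overlap, and the empty-vector libraries were close together. The log2 fold change was 0.26 ± 0.10 (SE) without the block and 0.25 ± 0.08 with it, edgeR adjusted p of 0.828 and 0.0405. Leaving out any of the 3 pairs gave adjusted p between 0.142 and 0.178. Each of the 3 called members thus lost its call under at least 1 left-out pair.

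**Figure D3:**
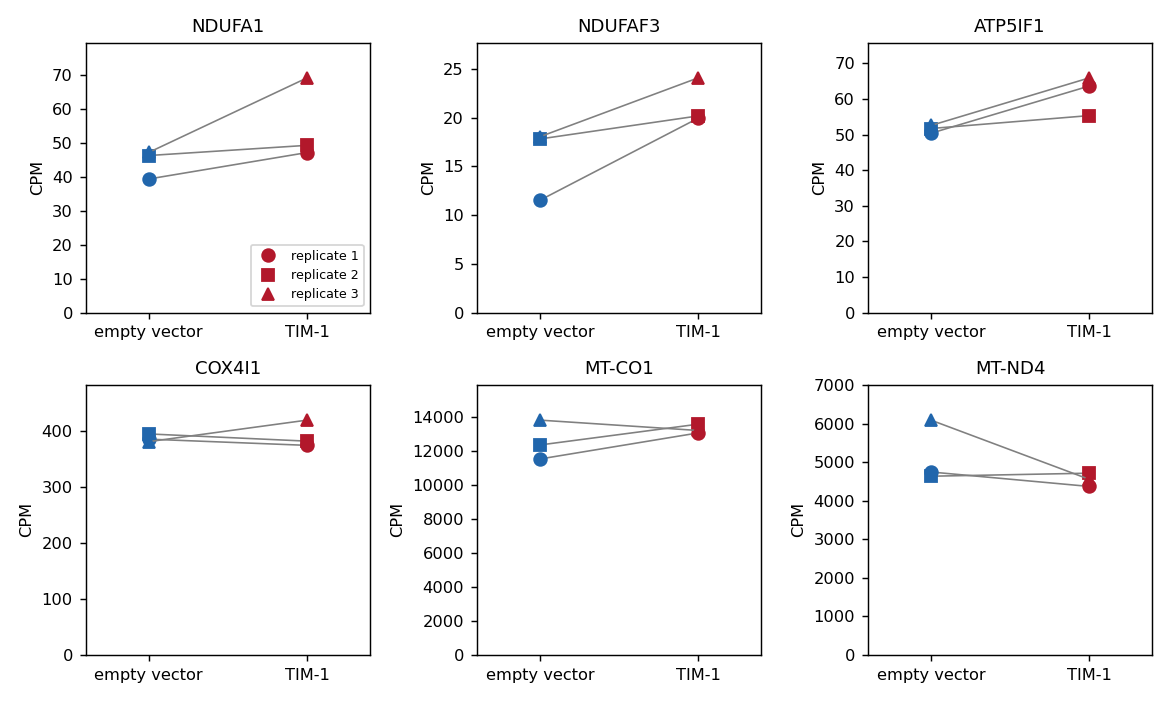
CPM of NDUFA1, NDUFAF3, ATP5IF1, COX4I1, MT-CO1 and MT-ND4 in each library, with empty vector at the left and TIM-1 at the right of each panel. Lines join libraries with the same replicate number; the first 3 genes are higher with TIM-1 in every pair, while COX4I1 and MT-CO1 go both ways.

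Non-overlap of the groups was no more frequent than in the table as a whole. TIM-1 libraries all lay above the empty-vector libraries for 5 of the 103 members (NDUFAF3, MT-ND5, UQCRH, ATP5IF1 and ATP5MG), while 6.6% of all tested genes did so. They all lay below for 1 member, ATP5F1A, while 5.06% of all tested genes did so. ATP5F1A, the alpha subunit of the ATP synthase, was at 840, 841 and 857 CPM with TIM-1 and at 878, 862 and 924 CPM with empty vector. Its fold change on the log2 scale was -0.07 ± 0.07 (SE), edgeR adjusted p of 0.926.

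In complex I the 36 tested nuclear genes had a median log2 fold change of -0.015, with 16 above 0 and 20 below. The 7 mitochondrial genes had a median of -0.15, with 2 above 0 and 5 below, and of 0.041 without empty-vector replicate 3, with 5 above 0. MT-ND4, a proton-pumping subunit, was at 4373, 4718 and 4559 CPM with TIM-1 and at 4748, 4639 and 6095 CPM with empty vector. Only empty-vector replicate 3 lay clear of the other libraries, and the fold change on the log2 scale was -0.18 ± 0.10 (SE), edgeR adjusted p of 0.893. MT-ND2, another pumping subunit, was at 2193, 2524 and 2412 CPM against 2229, 2526 and 3300, again with that library on its own. MT-ND5 went the other way, at 2136, 2196 and 2159 CPM with TIM-1 and 1940, 2102 and 2033 with empty vector, log2 0.10 ± 0.07 (SE), edgeR adjusted p of 0.915. NDUFS5, the highest nuclear complex I gene at 296 FPKM, was at 151, 168 and 186 CPM against 147, 165 and 156, and its groups overlapped. Among the 8 NDUFAF factors the median was -0.0068, and NDUFAF1 had the lowest value, -0.23 ± 0.17 (SE), edgeR adjusted p of 0.917.

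Complex II, the succinate dehydrogenase shared with the tricarboxylic acid cycle, had a median of -0.010 over its 4 genes. SDHB was at 172, 182 and 170 CPM with TIM-1 and at 182, 176 and 163 CPM with empty vector, log2 0.01 ± 0.08 (SE). SDHD, a membrane anchor, was at 53.2, 69.9 and 69.0 CPM against 62.2, 65.4 and 68.5. In both genes the groups overlapped, and the 95% intervals ran from -0.17 to 0.19 for SDHB and from -0.29 to 0.23 for SDHD.

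Complex III had a median of 0.11 over its 10 nuclear genes, with 6 above 0. Without TIM-1 replicate 3 this median was -0.010, and without empty-vector replicate 1 it was 0.0059. UQCRH, the hinge subunit that sits by cytochrome c1, was at 308, 309 and 357 CPM with TIM-1 and at 281, 299 and 297 CPM with empty vector. Its groups did not overlap, and the fold change on the log2 scale was 0.15 ± 0.08 (SE), edgeR adjusted p of 0.893. CYC1, cytochrome c1 itself, was at 346, 355 and 398 CPM against 363, 398 and 421, log2 -0.10 ± 0.09 (SE), edgeR adjusted p of 0.921. MT-CYB was at 3366, 3211 and 3149 CPM against 3709, 2977 and 3907, with both the highest and the lowest library in the empty-vector group.

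Complex IV showed the most even direction among the nuclear sets: all 15 tested nuclear genes had a positive log2 fold change, with a median of 0.12, and none passed the test in either fit. TIM-1 replicate 3 was the highest library for 11 of the 15, while it was the highest for 12.7% of all tested genes. Without that library the median was 0.0024, with 9 of 15 above 0. Summed over the 19 genes, complex IV stood at 1415, 1470 and 1663 CPM with TIM-1 and at 1385, 1533 and 1418 CPM with empty vector. COX4I1, the largest nuclear subunit, was at 374, 382 and 419 CPM against 385, 394 and 381, log2 0.02 ± 0.08 (SE), 95% interval from -0.15 to 0.19. COX6B1, which faces the intermembrane space, was at 163, 156 and 184 CPM against 152, 165 and 162. COX7B was at 175, 193 and 219 CPM against 172, 190 and 158, log2 0.17 ± 0.11 (SE), edgeR adjusted p of 0.906. MT-CO1 was at 13052, 13566 and 13196 CPM against 11519, 12343 and 13805, log2 0.08 ± 0.08 (SE), edgeR adjusted p of 0.926. MT-CO2, which receives electrons from cytochrome c, was at 4747, 4682 and 4412 CPM against 4796, 4608 and 6019.

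Complex V had a median of 0.025 over its 17 tested nuclear genes, with 9 above 0. ATP5F1B was at 1797, 1733 and 1848 CPM with TIM-1 and at 1844, 1891 and 1953 CPM with empty vector, and its highest TIM-1 library lay just above the lowest empty-vector one. Its fold change on the log2 scale was -0.08 ± 0.07 (SE), edgeR adjusted p of 0.921. MT-ATP6, the subunit that forms the proton path, was at 1628, 1685 and 1675 CPM against 1709, 1605 and 2391, again with empty-vector replicate 3 apart. MT-ATP8, at 0.905 to 2.82 CPM, was too thinly counted to judge, with a 95% interval from -0.75 to 1.12.

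By coding genome, the 13 mitochondrial genes had a median log2 fold change of -0.12, with 9 below 0, and the 90 tested nuclear genes a median of 0.018, with 39 below 0. The mitochondrial value rested on 1 library. Empty-vector replicate 3 was the highest of the 6 libraries for 10 of the 13 mitochondrial genes, while it was the highest for 21.8% of all tested genes. The median deviation of the 13 genes from their own means was 0.31 on the log2 scale there and between -0.11 and -0.040 in the other 5 libraries. Without that library the median fold change was 0.012, with 8 genes above 0 and 5 below. Between same-numbered libraries the median difference was 0.040 for replicate 1, 0.063 for replicate 2 and -0.31 for replicate 3. The 3 mitochondrial genes for which this library was not the highest were MT-ND5, MT-ND4L and MT-ATP8. The 2 mitochondrial ribosomal RNA genes, counted beside them, summed to 3355, 3551 and 3713 CPM with TIM-1 and to 2470, 3323 and 4060 CPM with empty vector, so that this library was also the highest and empty-vector replicate 1 the lowest.

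The nuclear genes leaned on another library. TIM-1 replicate 3 was the highest of the 6 for 45 of the 90 tested nuclear genes, while it was the highest for 12.7% of all tested genes. Without it the nuclear median was -0.050, with 32 of 90 above 0. The summed mitochondrial members stood at 4.01, 4.05 and 3.64 times the nuclear members with TIM-1 and at 3.84, 3.68 and 4.501 times with empty vector, means of 3.90 ± 0.22 and 4.00 ± 0.44 (SD, n = 3 each). The groups overlapped, so the balance of both genomes' transcripts differed by less than the spread between libraries.

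**Figure D4:**
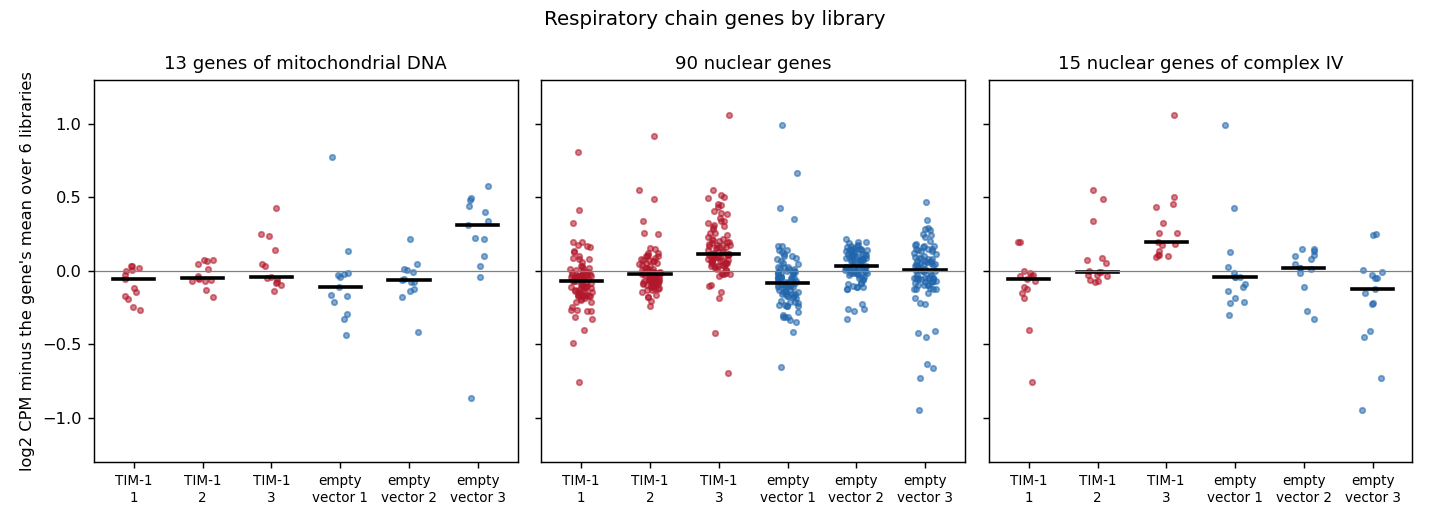
Log2 CPM of each tested member minus that gene's mean over 6 libraries, by library, for the 13 mitochondrial genes, the 90 nuclear genes and the 15 nuclear complex IV genes (red, TIM-1; blue, empty vector; black lines, medians). The mitochondrial genes are high in empty-vector replicate 3, with a median of 0.31, and the nuclear genes are high in TIM-1 replicate 3, with a median of 0.11.

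Replicate 1 of both groups was set against replicates 2 and 3 with group as a term, a comparison made because earlier results of these data had shown replicate 1 to stand apart. Of the 103 members 1 was higher in replicate 1 and 13 were lower (edgeR, adjusted p below 0.05), where 11.6% of all tested genes were higher and 12% lower. The members called higher were thus fewer than the background share, and those called lower were near it. In all, 83 of the 103 members had a negative value, with a median of -0.12, while the median of all tested genes was -0.0074. NDUFA3, an accessory subunit of complex I, was at 15.7 CPM in replicate 1 against 19.2 and 28.1 with TIM-1, and at 14.8 against 22.6 and 20.6 with empty vector. Its log2 difference was -0.57 ± 0.14 (SE), edgeR adjusted p of 0.0035. ATP5F1E, the small epsilon subunit of the ATP synthase, was at 142 against 162 and 223 CPM and at 130 against 171 and 169 CPM, log2 -0.42 ± 0.10 (SE), edgeR adjusted p of 0.0042. UQCRB, a ubiquinone-binding subunit of complex III, was at 92.0 against 113 and 126 CPM and at 85.3 against 112 and 99.0 CPM, log2 -0.34 ± 0.08 (SE), edgeR adjusted p of 0.0021. In each of these genes replicate 1 was the lowest library of its group. NDUFS1, the large iron-sulfur subunit of complex I, was the member called higher, at 154 against 140 and 134 CPM and at 158 against 135 and 141 CPM, log2 0.18 ± 0.07 (SE), edgeR adjusted p of 0.0465. Nuclear members are short, with a median exon length of 2469 bases against 4638 for all tested genes. With exon length corrected per library the counts became 0 higher and 4 lower. The matching change over all tested genes is not given here, and the part of length was not tested.

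Genes that supply, assemble or regulate the chain were taken from lists made with earlier results of these data known. None of their members passed the test without the block. In the paired fit 2 of 29 tested genes for maintenance and expression of mitochondrial DNA fell and 0 rose, where 1.79% of all tested genes fell and 3.22% rose. TFAM, which packages mitochondrial DNA and starts its transcription, was at 93.6, 123 and 117 CPM with TIM-1 and at 127, 133 and 134 CPM with empty vector, with no overlap. In the paired fit it was lower by -0.25 ± 0.07 (SE) on the log2 scale, edgeR adjusted p of 0.0205. TWNK, the replicative helicase, was at 30.3, 39.6 and 35.1 CPM against 34.5, 45.7 and 48.3, log2 -0.29 ± 0.09 (SE), edgeR adjusted p of 0.0401. In this list 25 of 29 genes had a negative value with a median of -0.11, beside 7238 negative values among all 14479 tested genes. The TIM-1 libraries all lay below the empty-vector ones for 6 of the 29, while 5.06% of all tested genes did so. The median of this list without single libraries is not given here, so its dependence on 1 library cannot be read. DESeq2 with the block gave TFAM an adjusted p of 0.151 and TWNK 0.342, so neither call was shared by both tools. Without the replicate 1 pair the edgeR adjusted p of TFAM was 0.203, and without the replicate 2 pair that of TWNK was 0.227.

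Among 13 tested regulators 2 fell and 0 rose in the paired fit, beside 1.79% and 3.22% of all tested genes. MYC, a broad activator of growth and mitochondrial genes, was at 140, 253 and 272 CPM with TIM-1 and at 174, 317 and 358 CPM with empty vector. It was lower in 3 of 3 pairs by -0.35 ± 0.06 (SE) on the log2 scale, edgeR adjusted p of 0.00011, and the groups overlapped. PPRC1, a coactivator of NRF1, was at 81.5, 111 and 104 CPM against 98.3, 130 and 144, log2 -0.32 ± 0.07 (SE), edgeR adjusted p of 0.0016. Both calls remained in DESeq2 with the block, with adjusted p of 5.6e-05 for MYC and 0.0174 for PPRC1, and under each left-out pair. NRF1 (-0.20), GABPA (-0.03) and YY1 (0.04), whose motifs were searched above, did not pass, with paired adjusted p of 0.279, 0.872 and 0.823 in edgeR. PPARGC1A and ESRRG, regulators of muscle and liver mitochondria, had no count in any library.

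In the tricarboxylic acid cycle and pyruvate dehydrogenase list 3 of 22 tested genes rose and 0 fell in the paired fit, against 3.22% and 1.79% of all tested genes. Most of the list went the other way, with 14 of 22 values negative. The TIM-1 libraries all lay below the empty-vector ones for 4 genes and all above for 1, beside 5.06% and 6.6% of all tested genes. The 3 that rose were PDK1 and PDK3, kinases that switch off pyruvate dehydrogenase, and IDH2, the mitochondrial NADP-dependent isocitrate dehydrogenase. PDK1 was at 99.97, 49.996 and 46.1 CPM with TIM-1 and at 83.4, 32.6 and 32.3 CPM with empty vector, log2 0.45 ± 0.08 (SE), edgeR adjusted p of 0.00013. Replicate 1 was the highest library in both groups, and TIM-1 was higher in 3 of 3 pairs; DESeq2 with the block gave an adjusted p of 0.0073, while leaving out the replicate 2 pair gave 0.0515. PDK3 was at 28.4, 22.5 and 23.6 CPM against 19.2, 16.6 and 17.8, with no overlap, log2 0.47 ± 0.11 (SE), edgeR adjusted p of 0.0032, 0.102 in DESeq2 and 0.057 without the replicate 2 pair. IDH2 was at 83.6, 61.8 and 61.7 CPM against 72.5, 45.6 and 52.3, log2 0.29 ± 0.07 (SE), edgeR adjusted p of 0.0128, and 0.431 without the replicate 2 pair.

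Of 40 tested assembly factors outside the member rule 1 fell and 0 rose in the paired fit, a share near the 1.79% of all tested genes that fell. That gene was COA7, a complex IV assembly factor, at 58.2, 84.2 and 80.3 CPM with TIM-1 and 67.3, 99.0 and 102 CPM with empty vector, log2 -0.26 ± 0.07 (SE), edgeR adjusted p of 0.0162. DESeq2 gave it 0.125, and edgeR without the replicate 2 pair 0.222. Among 20 tested electron carriers, coenzyme Q and supercomplex genes none passed. CYCS, cytochrome c, came nearest, at 195, 231 and 242 CPM against 230, 264 and 267, log2 -0.19 ± 0.06 (SE), edgeR adjusted p of 0.0526. The list medians in the paired fit were 0.0026 for assembly factors, 0.0091 for carriers, -0.11 for mitochondrial DNA expression, -0.066 for regulators and -0.064 for the cycle, beside 0.00010 for all tested genes.

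**Figure D5:**
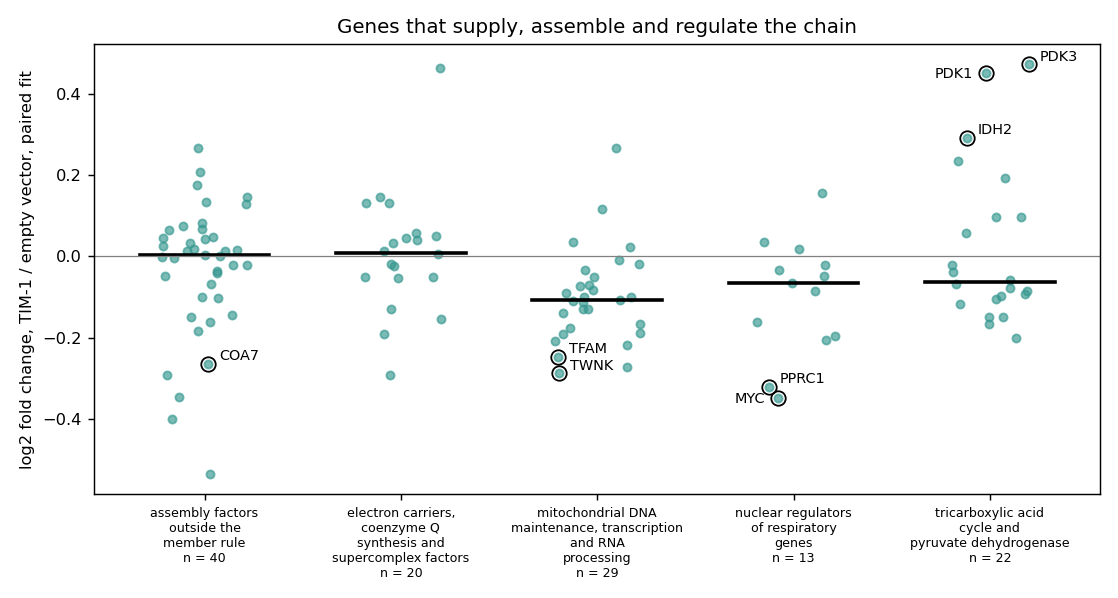
Log2 fold change of TIM-1 over empty vector in the paired fit for the tested genes of 5 lists around the respiratory chain; black lines are medians and ringed genes passed an adjusted p of 0.05. The genes of mitochondrial DNA expression lie mostly below 0 (25 of 29). The called genes of the cycle list (PDK1, PDK3, IDH2) lie above 0, while 14 of the 22 genes in that list lie below it.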

How the data were processed

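RNA sequencing of total RNA gave 6 libraries. The authors deposited 1 table of raw, unnormalized read counts by Ensembl gene. Per the submitters' processing notes the build was hg38 and the tools were HISAT2 2.0.5, featureCounts 1.5.0-p3 and DESeq2 1.16.1. Annotation release, strand setting and handling of multi-mapped reads: not given in the sources used here. GENCODE 29 gave positions, exon lengths and biotypes.

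Counts were tested with edgeR 4.0.16 in R 4.3.3: quasi-likelihood F test, robust fit, TMM factors, filterByExpr with a minimum count of 10, two-sided p-values with Benjamini-Hochberg adjustment over all 14479 tested genes, threshold 0.05. Standard errors come from the F statistic. CPM uses TMM-scaled library sizes, and FPKM divides it by the joined length of all annotated exons of the gene. The main fit had no replicate term. Deviations of same-numbered libraries correlated at 0.53, 0.23 and 0.26 (limit 0.1), so the numbers were taken as pairs, although the labels do not say what they mark and replicates 2 and 3 are told apart weakly. The block leaves 2 residual degrees of freedom. Within-group libraries differed by more than sampling noise (chi-square per degree of freedom from 4.16 to 27.5), so none was treated as 1 library deposited again; this does not tell separate cultures from repeat libraries. DESeq2 1.42.0, other normalizations, filters, corrections for GC content and length, and left-out libraries were the alternatives. All 157 list entries matched a gene.

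Members and lists were chosen with earlier results of these data known. Named genes are MT-CO1, NDUFA1 and COX4I1; members past the threshold; in each complex and genome up to 3 with the smallest p in the paired fit or, with none, the 2 of the highest FPKM; isoform pairs; ATP5IF1; and up to 3 called genes per list. Others were named after their values were seen, as non-overlapping, low-count or replicate-linked genes. No set test was run.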

Additional observations from a re-analysis of the deposited data

How the results depend on the processing

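With no replicate term 0 members were called under DESeq2, RLE factors, library sizes without mitochondrial DNA genes, no low-count filter and each left-out library. A replicate block gave 3 higher members, and a term for replicate 1 only, added after the values were seen, gave 1 (NDUFAF3). In the paired fit the 3 higher members became 0 with DESeq2, 1 with length correction, 1 with the replicate-1 term and 2 without the low-count filter (ATP5IF1 not called), and 1 to 2 when a pair was left out. Its 0 lower members became 2 without the low-count filter (MT-ND1, MT-ND4) and 2 with GC correction (MT-ND4, NDUFA6). Over all 14479 tested genes the block gave 466 higher and 259 lower, and the replicate-1 term gave fewer, 348 and 162. All-gene counts under the remaining alternatives are not given here, so changes in member counts cannot be set against them. Between replicate 1 and the others, the 1 higher member became 0 with DESeq2 and 0 with length correction, and 0 to 2 without single libraries. The 13 lower ones became 7 and 4, and 3 to 23. The nuclear complex IV median of 0.12 ran from -0.0022 to 0.21 over left-out libraries and pairs, with 0.0024 without TIM-1 replicate 3 and the lowest without that pair, the mitochondrial median from -0.21 to 0.012 and the nuclear one from -0.050 to 0.067. Leaving out libraries or pairs for the medians of mitochondrial complex I (-0.30 to 0.041) and nuclear complex III (-0.010 to 0.20) was added after the values were seen. The causes were not tested. Among values for single genes under alternatives, 533 kept their call or, if uncalled, stayed within 1 standard error. A further 28 lost their call, 6 gained one, and 41 uncalled values moved by more than 1 standard error. A change of sign was counted only for genes called in the starting fit, with 0 found. Uncalled genes that changed sign were not counted as reversed. Counting depth limits genes with few counts, among them the 12 low-count subunits, MT-ATP8, COX7A1 and COX6B2. Members' standard errors had a median of 0.12 without the block and 0.077 with it.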
